A study of Mus musculus with 6 samples.

Results

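The collagen chains are the gene products that assemble, 3 at a time, into the triple helices of the extracellular matrix. They were taken here as every row of the deposited counts whose symbol is Col, a type number, a and a chain number, with at least 10 counts in 3 or more of the 6 libraries. This gave 38 chains out of 44 such symbols among 24422 genes. They fell into 10 fibrillar chains (types I, III, V, XI, XXIV and XXVII), 6 type IV chains of basement membranes and 22 other chains.

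Fibrillar collagens form the rope-like fibrils of the renal interstitium and accumulate in renal fibrosis. Type IV collagens form the sheet-like network of basement membranes, in which an α1/α2 network surrounds most tubules and vessels, while an α3/α4/α5 network, the one disrupted in Alport syndrome, is laid down in the glomerulus and in part of the distal nephron. The other chains form beaded filaments (type VI), anchoring fibrils (type VII), short-chain networks (type VIII), fibril-associated molecules (FACIT), proteoglycan-bearing basement membrane molecules (types XV and XVIII) and transmembrane molecules.

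Poly-A RNA of whole kidneys from C57BL/6 mice at postnatal day 60 (P60), on an iron sufficient diet with 220 ppm iron, was sequenced in 3 controls (wild type) and 3 TfR1KO;KspCre mice (Tfr1f/f;KspCre). In the latter, exons 3 and 4 of the transferrin receptor TfR1 (gene symbol Tfrc) are floxed. KspCre, in which the Ksp-cadherin promoter drives Cre recombinase, deletes them in what the paper names the distal nephron. The paper reports cysts in collecting ducts as well, and TfR1 still present in cortical proximal tubules. The 3 TfR1KO;KspCre libraries are called knockouts below, numbered as in their titles. In whole tissue, more cells of a type and more RNA per cell cannot be told apart.

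Total counts lay between 11501053 (knockout 3) and 21001341 (control 1). Tfrc gave no check of the labels, since knockout 1 had more Tfrc counts (4368) than any control (1032 to 2856). Knockout 1 lay between the groups for many chains. Control 2 carried Y-linked transcripts and little Xist, unlike the other 5 libraries, and knockout 3 held more ribosomal Rn45s (22859 CPM against 4858 to 7176 in the others). The tissue label was met by its markers, as all 8 tubule and glomerulus markers were detected in every library. Their summed level was 14743 to 18959 CPM in controls and 11144, 2987 and 2188 CPM in knockouts 1 to 3. Of the 8, the proximal tubule genes Lrp2 and Slc34a1 fell (edgeR), while the thick ascending limb genes Umod and Slc12a1 had log2 fold changes of -1.53 (SE 0.99) and -1.46 (SE 0.81) and were not called. Without knockout 1 these were -3.55 and -2.67, and both were called lower (adjusted p = 0.00554 and 0.0220, edgeR). CPM are counts per 1000000 counts of a library, after TMM normalisation.

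A minority of the chains was called, each of them higher in knockouts. Of the 38 chains, 9 rose and 0 fell (edgeR's quasi-likelihood test, with an adjusted p under 0.05 after Benjamini-Hochberg adjustment over all 15171 genes tested), where 10.6% of all genes were called higher and 6.64% lower. The 9 were the fibrillar chains Col1a1, Col1a2, Col3a1 and Col5a1, the type IV chains Col4a1 and Col4a2, the type VI chains Col6a1 and Col6a2, and Col18a1. At an unadjusted p under 0.05 there were 25 of 38 chains (21 higher and 4 lower), against 5862 of 15171 genes. The median log2 fold change was 1.31 over the 38 chains, against 0.02 over all genes, and it was 1.88 for fibrillar, 0.51 for type IV and 1.47 for other chains. In 12 chains all knockouts lay above all controls, where 23.8% of all genes did so, and in 4 chains (Col4a3, Col4a4, Col25a1 and Col27a1) all knockouts lay below all controls, where 22.2% of all genes did so. For Col17a1, among the 12, and Col25a1, among the 4, this followed from the count minimum, which each reached only in the 3 libraries of the group where it is high. The same selection applies to both in the counts at an unadjusted p, where Col17a1 is among the 21 and Col25a1 among the 4. Col6a2 was called although its groups overlapped, since knockout 1 lay just below control 1.

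**Figure D1:**
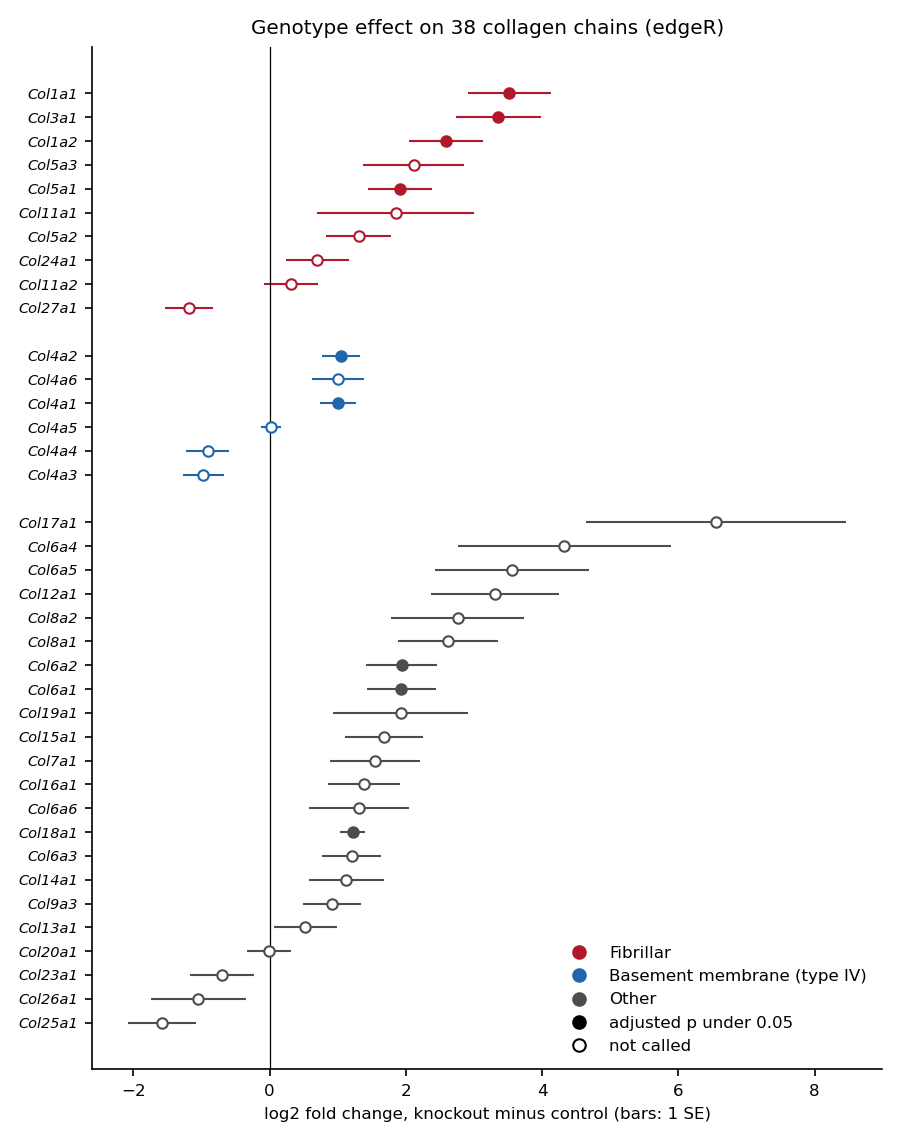
Log2 fold change (knockout minus control, x axis) of each of the 38 collagen chains, grouped by class, with bars of 1 standard error from edgeR (3 libraries per group). Filled points are the 9 chains with an adjusted p under 0.05, all to the right of 0; Col4a3 and Col4a4 lie to the left of 0 and Col4a1 and Col4a2 to the right.

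The calls were near the threshold and depended on which libraries entered the fit. The smallest adjusted p of any chain was 0.0277 (edgeR). Leaving out any single library other than knockout 1, that is control 1, 2 or 3 or knockout 2 or 3, left 0 chains called in edgeR, with 15 to 21 chains at an unadjusted p under 0.05. The same fits called 0, 0, 0, 73 and 2 genes in all, with 4270 to 4823 genes at an unadjusted p under 0.05. Without knockout 1, edgeR tested 37 chains, since Col6a4 did not pass the filter. It called 19 chains higher, where 18.0% of all genes were, and 4 lower, where 16.4% of all genes were. The 4 were Col4a3, Col4a4, Col27a1 and Col25a1. Col25a1 was selected by its counts in controls, and Col17a1, among the 19, by its counts in knockouts. With all 6 libraries, DESeq2's Wald test called 18 chains higher, where 15.5% of all genes were, and 3 lower, where 13.1% of all genes were, the 3 being Col4a3, Col4a4 and Col27a1.

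The share of all counts that fell on the 38 chains was taken over library size alone, without TMM. It was 0.253%, 0.199% and 0.184% in the controls but 0.386%, 0.835% and 0.625% in the knockouts. The TMM factors were 0.852 to 0.958 in controls and 1.04 to 1.14 in knockouts. The shares thus set the knockouts higher relative to the controls than TMM-normalised CPM do. All knockouts lay above all controls, and knockout 2 was the highest. The means were 0.212% ± 0.0364 and 0.615% ± 0.225 (SD, n = 3 each), a ratio of 2.90. A two-sided exact permutation test gave p = 0.1, the smallest that 3 libraries against 3 allow. In knockout 3, the smallest library, the Wilson 95% interval of the share was 0.620% to 0.629%, which covers counting error only and not the spread between libraries.

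By class, the fibrillar share of all counts was 0.0521%, 0.0345% and 0.0368% in controls and 0.0957%, 0.334% and 0.329% in knockouts, with a ratio of means of 6.15 and 0.212 of the 0.403 percentage points between the groups. The corresponding ratio was 1.47 for type IV and 3.57 for other chains. These ratios carry no TMM factor either, so each stands higher than a ratio of TMM-normalised CPM would. Within the collagen counts, fibrillar chains therefore made up 17.3% to 20.6% in controls but 24.8%, 40.0% and 52.6% in knockouts 1 to 3, while type IV chains, at 53.5% to 59.2% in controls, were at 44.5%, 24.2% and 23.5% in the knockouts.

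**Figure D2:**
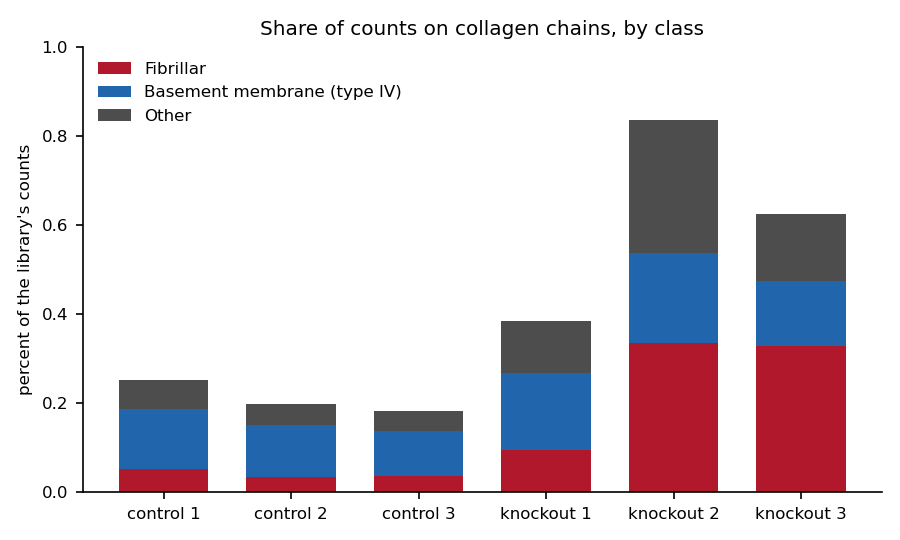
Percent of each library's counts (y axis, from 0) on fibrillar, type IV and other collagen chains, stacked, for the 6 libraries. The stacks stand at 0.184% to 0.253% in controls and at 0.386% to 0.835% in knockouts, with the fibrillar part largest in knockouts 2 and 3.

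Col1a1 and Col1a2 encode the chains of type I collagen, the most abundant collagen of fibrous tissue, whose molecule holds 2 α1 chains and 1 α2 chain. Col1a1 (chromosome 11, 94797538 to 94814356, mm9) was at 65.3, 33.4 and 24.6 CPM in controls and 171, 624 and 622 CPM in knockouts. Every knockout was above every control, and knockouts 2 and 3 were alike and well above knockout 1. Its log2 fold change was 3.52 (SE 0.61, adjusted p = 0.0286, edgeR), the largest of the 9 chains called. Col1a2 (chromosome 6, 4454814 to 4491543) was at 159, 98.8 and 70.0 CPM in controls and 251, 952 and 774 CPM in knockouts. The groups did not overlap, and the log2 fold change was 2.59 (SE 0.55, adjusted p = 0.0326, edgeR).

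Col3a1 encodes the single chain of type III collagen, which co-assembles with type I in pliable tissue. Col3a1 (chromosome 1, 45368383 to 45406551) was at 129, 65.9 and 40.6 CPM in controls and 308, 1004 and 1101 CPM in knockouts. As for type I, knockout 1 took an intermediate place above all controls. The log2 fold change was 3.36 (SE 0.63, adjusted p = 0.0303, edgeR).

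The RefSeq promoter windows (GRCm38.p6, 250 bases before to 50 after the start) of Col1a2 and Col3a1 are shown because their transcripts rose together although the windows differ in makeup. Capitals mark 3 short motifs on either strand, namely the CCAAT box, the GC box with the letters GGGCGG and the TATA box with the letters TATAAA. The Col1a2 window holds 2 CCAAT boxes and 2 GC boxes, and the Col3a1 window holds 1 TATA box and neither of the other motifs.
Col1a2, chr6:4505368-4505667, plus strand: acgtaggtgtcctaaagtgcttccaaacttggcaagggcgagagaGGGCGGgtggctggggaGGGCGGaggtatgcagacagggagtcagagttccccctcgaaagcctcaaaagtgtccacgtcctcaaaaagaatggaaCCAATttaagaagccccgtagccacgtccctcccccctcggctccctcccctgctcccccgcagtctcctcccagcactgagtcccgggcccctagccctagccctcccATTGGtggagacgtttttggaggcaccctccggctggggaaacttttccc
Col3a1, chr1:45311288-45311587, plus strand: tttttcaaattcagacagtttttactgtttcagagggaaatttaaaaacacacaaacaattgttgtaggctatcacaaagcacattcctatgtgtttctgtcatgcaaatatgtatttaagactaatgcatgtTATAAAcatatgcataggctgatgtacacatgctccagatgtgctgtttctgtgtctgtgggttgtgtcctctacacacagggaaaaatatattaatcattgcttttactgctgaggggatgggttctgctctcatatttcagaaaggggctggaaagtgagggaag
A window was available for 31 of the 38 chains. The GC box was present in 21 of these 31 (67.7%) and in 35.7% of all 32851 windows, the CCAAT box in 12 (38.7%) and 37.4%, and the TATA box in 4 (12.9%) and 13.6%. Chains were counted as genes with the motif in any of their windows, while the shares beside them count windows, over every gene with one. The units thus differ. These are matches of letters and not binding sites.

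Type V collagen sits within type I fibrils and limits their diameter. Col5a1 was at 35.8, 23.0 and 19.0 CPM in controls and 39.9, 131 and 123 CPM in knockouts. Knockout 1 exceeded control 1 only narrowly, whereas the other knockouts were far above, and the chain rose by a log2 fold change of 1.91 (SE 0.47, adjusted p = 0.0404, edgeR). It was not called by limma-voom (adjusted p = 0.0554). Col5a2, the neighbour of Col3a1 on chromosome 1 (45431166 to 45560127), was at 40.3, 44.5 and 64.4 CPM in controls and 45.6, 183 and 141 CPM in knockouts. Its groups overlapped through knockout 1, and the log2 fold change of 1.31 (SE 0.48) had an adjusted p of 0.0938 (edgeR). Col5a3 was at 16.8, 6.88 and 6.66 CPM in controls and 13.3, 27.4 and 91.5 CPM in knockouts. It was highest in knockout 3, and its log2 fold change of 2.12 (SE 0.74) fell to 1.01 without that library.

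Col27a1, a fibrillar chain known from cartilage, was the only fibrillar chain with a negative log2 fold change. It was at 93.4, 129 and 167 CPM in controls and 85.2, 48.6 and 37.2 CPM in knockouts. All knockouts lay below all controls, with knockout 1 close to control 1, and the log2 fold change of -1.19 (SE 0.35) had an adjusted p of 0.0579 (edgeR). The 3 remaining fibrillar chains were at low levels. Col11a1 was at 0.961 to 1.35 CPM in controls and at 11.9 CPM in knockout 2, but at 0.540 and 0.689 CPM in knockouts 1 and 3. Its log2 fold change of 1.85 turned to -0.996 without knockout 2. Col11a2 and Col24a1 stayed under 5 CPM in every library, with log2 fold changes of 0.32 (SE 0.39) and 0.70 (SE 0.47).

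**Figure D3:**
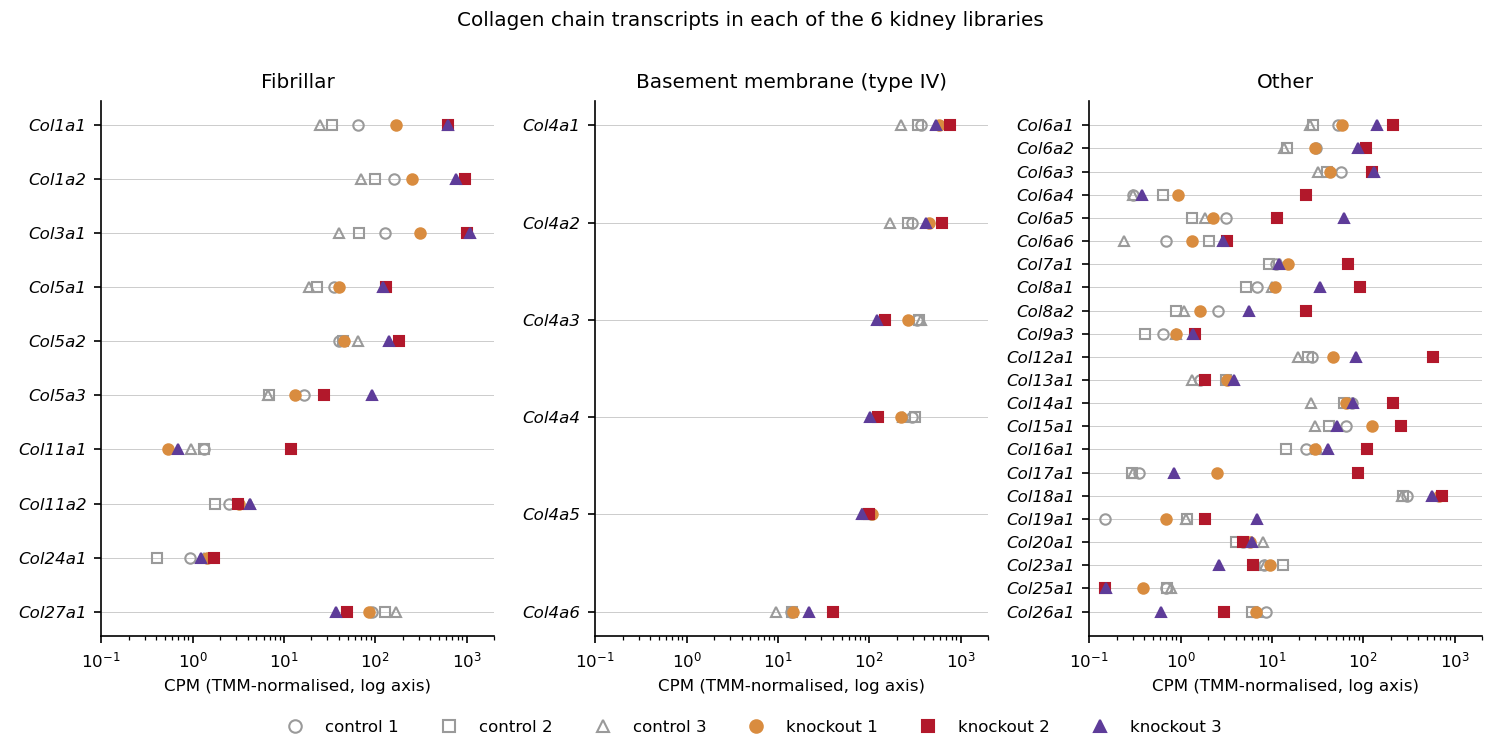
Level of each of the 38 chains (CPM, log axis) in the 6 libraries, in panels for fibrillar, type IV and other chains. Open grey symbols are controls and filled symbols knockouts; for Col1a1, Col3a1 and Col18a1 the filled symbols all lie to the right of the open ones, and for Col4a3 and Col4a4 to the left, while Col4a5 shows no separation.

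The 6 type IV chains are encoded by 3 pairs of genes lying head to head on opposite strands. In GENCODE M1 (mm9), Col4a1 (chromosome 8, 11198423 to 11312826, minus strand) and Col4a2 (11312805 to 11449287, plus strand) overlap by 22 bases at their starts, Col4a4 (chromosome 1, 82447298 to 82583424, minus strand) and Col4a3 (82583496 to 82718634, plus strand) lie 71 bases apart, and Col4a6 and Col4a5 lie 1308 bases apart on chromosome X. The pairs differed in how they moved, so the shared starts of the first 2 pairs are shown by the windows of Col4a1 and Col4a4 (RefSeq, GRCm38.p6), with the same motifs in capitals.
Col4a1, chr8:11312777-11313076, minus strand: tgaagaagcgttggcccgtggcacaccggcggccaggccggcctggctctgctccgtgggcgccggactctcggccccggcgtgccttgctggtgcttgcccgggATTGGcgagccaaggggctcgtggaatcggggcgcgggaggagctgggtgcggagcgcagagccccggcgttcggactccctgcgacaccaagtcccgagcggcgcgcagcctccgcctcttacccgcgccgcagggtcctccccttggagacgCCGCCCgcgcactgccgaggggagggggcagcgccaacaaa
Col4a4, chr1:82586800-82587099, minus strand: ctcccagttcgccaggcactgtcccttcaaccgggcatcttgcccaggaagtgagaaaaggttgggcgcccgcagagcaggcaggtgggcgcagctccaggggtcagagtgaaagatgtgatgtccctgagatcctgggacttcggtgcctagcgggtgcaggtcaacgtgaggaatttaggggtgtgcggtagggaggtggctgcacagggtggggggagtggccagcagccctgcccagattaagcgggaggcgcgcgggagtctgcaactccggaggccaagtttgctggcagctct
The Col4a1 window holds 1 CCAAT box and 1 GC box, and the Col4a4 window holds none of the 3 motifs.

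Col4a1 and Col4a2 rose together. Col4a1 was at 372, 345 and 223 CPM in controls and 579, 767 and 544 CPM in knockouts, and Col4a2 was at 294, 263 and 169 CPM in controls and 456, 629 and 420 CPM in knockouts. For both chains every knockout exceeded every control, and knockout 1 exceeded knockout 3. The log2 fold changes were 1.01 (SE 0.26, adjusted p = 0.0451) and 1.05 (SE 0.27, adjusted p = 0.0450; edgeR).

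Col4a3 and Col4a4 lay on the other side of the controls. Col4a3 was at 336, 351 and 366 CPM in controls and 266, 149 and 121 CPM in knockouts. Col4a4 was at 294, 316 and 235 CPM in controls and 226, 124 and 101 CPM in knockouts. The groups of neither chain overlapped, with knockout 1 nearest to the controls in both. The log2 fold changes were -0.97 (SE 0.30, adjusted p = 0.0643) and -0.91 (SE 0.32, adjusted p = 0.0845; edgeR), so neither was called with all 6 libraries. Without knockout 1 they were -1.39 and -1.33, with adjusted p of 0.00325 and 0.00521 (edgeR).

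Col4a5, the third chain of the α3/α4/α5 network and also a partner of α6, had nearly level values. It was at 105, 94.4 and 88.4 CPM in controls and 107, 100 and 83.6 CPM in knockouts. The log2 fold change was 0.01 (SE 0.15), and its sign depended on the scaling (-0.0042 with DESeq2's size factors). Col4a6, whose chain pairs with α5 in some basement membranes including that of smooth muscle, was at 13.9, 14.3 and 9.54 CPM in controls and 14.5, 39.7 and 21.9 CPM in knockouts. The groups did not overlap, although knockout 1 was only just above control 2, and the log2 fold change of 1.01 (SE 0.38) had an adjusted p of 0.1001 (edgeR).

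As shares of the type IV counts, which were not tested and in which a rise of one chain lowers the others, Col4a1 and Col4a2 held 36.0% to 47.1% of type IV counts in controls and 62.8%, 77.2% and 74.6% in knockouts 1 to 3. Col4a3, Col4a4 and Col4a5 held 52.0% to 63.2% in controls and 36.3%, 20.6% and 23.7% in knockouts. Nphs1, a marker of the podocytes that make the glomerular network, had a log2 fold change of 0.17 (SE 0.27), or -0.097 without knockout 1, and the summed tubule and glomerulus markers moved with Col4a3 and Col4a4 as given above. The part of the tubule transcripts in these values was not tested.

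Ratios between chains within a library were compared for 13 pairs, with 0.5 added to each count. In 6 of them the groups did not overlap, each with a two-sided exact permutation p of 0.1 and an adjusted p of 0.217 over the 13, so none passed a threshold that this design cannot reach. The ratio of Col4a3 to Col4a1 was 0.904, 1.02 and 1.64 in controls and 0.459, 0.194 and 0.222 in knockouts, a mean log2 difference of -2.08 with every knockout below every control. The ratio of Col4a5 to Col4a1 had a log2 difference of -1.02 and that of Col4a1 to Col1a1 one of -2.40. Of the head-to-head pairs, the ratio of Col4a1 to Col4a2 was 1.27 to 1.31 in controls and 1.22 to 1.29 in knockouts, and that of Col4a3 to Col4a4 was 1.11 to 1.55 and 1.18 to 1.21. The ratio of Col4a5 to Col4a6 was 7.49, 6.60 and 9.23 in controls but 7.35, 2.52 and 3.81 in knockouts. Knockout 1 thus lay among the controls and the other knockouts below them (log2 difference -0.90).

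Among fibrillar chains, the ratio of Col1a1 to Col1a2 was 0.411, 0.338 and 0.352 in controls and 0.682, 0.655 and 0.804 in knockouts. All 3 knockouts were thus higher, knockout 1 included, with a log2 difference of 0.96. The ratio of Col5a1 to Col1a1 was 0.549 to 0.771 in controls and 0.198 to 0.233 in knockouts (log2 difference -1.64), so Col5a1 differed less between groups than Col1a1. The ratio of Col3a1 to Col1a1 overlapped between groups, at 1.65 to 1.97 and 1.61 to 1.801.

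**Figure D4:**
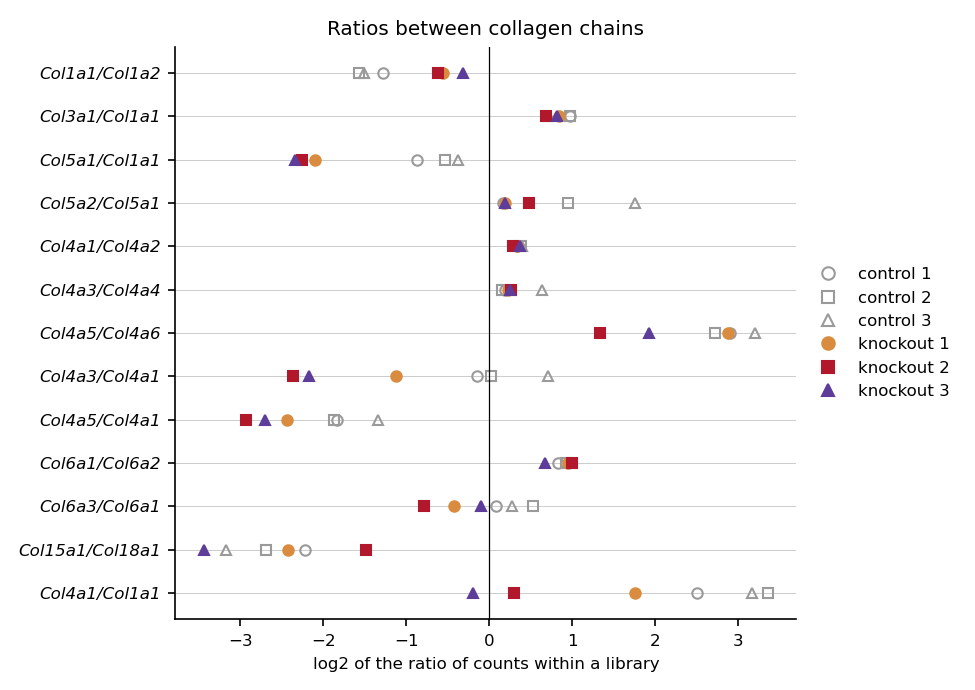
Log2 of the ratio of counts of 2 chains within a library (x axis) for the 13 ratios compared, with open grey symbols for controls and filled symbols for knockouts. The groups are apart for 6 ratios, among them Col4a3/Col4a1, Col5a1/Col1a1 and Col1a1/Col1a2, and they overlap for pairs such as Col4a1/Col4a2 and Col6a1/Col6a2.

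Type VI collagen forms beaded filaments close to cell surfaces, classically from α1, α2 and α3 chains. Col6a1 and Col6a2 lie near each other on chromosome 10 (76171537 to 76188913 and 76058507 to 76086375, minus strand). Col6a1 was at 53.5, 28.1 and 26.2 CPM in controls and 57.9, 213 and 141 CPM in knockouts, and Col6a2 at 30.1, 14.7 and 13.6 CPM in controls and 30.04, 106 and 88.3 CPM in knockouts. In both, knockout 1 lay beside control 1, and knockouts 2 and 3 were far above. The chains rose by log2 fold changes of 1.93 (SE 0.50, adjusted p = 0.0450) and 1.94 (SE 0.52, adjusted p = 0.0472; edgeR). Neither was called by limma-voom (adjusted p = 0.0532 and 0.0682). Col6a3 was at 56.7, 40.6 and 31.9 CPM in controls and 43.1, 124 and 132 CPM in knockouts. Its groups overlapped, and the log2 fold change of 1.21 (SE 0.43) had an adjusted p of 0.0885 (edgeR). The ratio of Col6a3 to Col6a1 was 1.06 to 1.44 in controls and 0.580 to 0.938 in knockouts.

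Col6a4, Col6a5 and Col6a6 encode alternative type VI chains related to α3 and lie side by side on chromosome 9. Col6a4 was at 0.299, 0.646 and 0.3002 CPM in controls and 0.932, 23.8 and 0.383 CPM in knockouts, and was high in knockout 2 alone. Col6a5 was at 3.13, 1.35 and 1.86 CPM in controls and 2.26, 11.49 and 62.2 CPM in knockouts, and was highest in knockout 3. The log2 fold change of Col6a4 was 4.33 (SE 1.57) and fell to 0.71 without knockout 2. That of Col6a5 was 3.56 (SE 1.13) and fell to 1.69 without knockout 3. Col6a6 stayed between 0.240 and 3.26 CPM. The 3 neighbours therefore did not peak in 1 library.

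Type XVIII collagen is a basement membrane proteoglycan whose C-terminal fragment is endostatin. Col18a1 (chromosome 10, 76514923 to 76629293) was at 305, 273 and 269 CPM in controls and 680, 729 and 564 CPM in knockouts. Every knockout lay above every control, with knockout 1 between knockouts 2 and 3. The log2 fold change of 1.22 (SE 0.19) had the smallest adjusted p of the 38 chains, 0.0277 (edgeR), and lay between 1.14 and 1.32 when each library was left out in turn. Its relative Col15a1 was at 65.2, 42.1 and 29.8 CPM in controls and 126, 261 and 51.8 CPM in knockouts. Knockout 3 lay within the control range, and the log2 fold change of 1.68 (SE 0.58) had an adjusted p of 0.0807 (edgeR) and was 0.96 without knockout 2.

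None of the 14 chains outside types VI, XV and XVIII in this class was called by edgeR in the fit of all 6 libraries with the count minimum, although Col17a1 had a larger log2 fold change than any other chain. This chain reached the count minimum only through the knockouts. Col17a1, a hemidesmosomal transmembrane collagen of stratified epithelia, was at 0.348, 0.294 and 0.3002 CPM in controls and 2.50, 87.1 and 0.843 CPM in knockouts. It was above the controls in every knockout, but by far most in knockout 2, with 1735 counts there and 11 in knockout 3. The log2 fold change of 6.55 (SE 1.91, adjusted p = 0.0565, edgeR) fell to 2.41 without knockout 2. Col12a1, a FACIT chain on the surface of type I fibrils, was at 27.7, 24.6 and 19.3 CPM in controls and 46.5, 581 and 84.0 CPM in knockouts. All knockouts were above all controls, and the log2 fold change of 3.31 (SE 0.94, adjusted p = 0.0532, edgeR) fell to 1.45 without knockout 2. Col8a1, of the short-chain networks of vessels, was at 5.23 to 9.97 CPM in controls and 10.9, 91.2 and 33.7 CPM in knockouts, again with no overlap (log2 fold change 2.62, SE 0.73, adjusted p = 0.0508, edgeR, and 1.59 without knockout 2). Without knockout 1, edgeR called Col8a1, Col8a2, Col12a1, Col16a1 and Col17a1 higher and Col25a1 lower. With all 6 libraries it called Col8a1 and Col12a1 with no filter, these and Col17a1 with library size alone, and Col8a1 with its newer quasi-likelihood version. DESeq2's Wald test on all 6 libraries called Col8a1, Col8a2, Col12a1 and Col16a1 higher and gave Col17a1 no p-value.

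Further chains also had their highest value in knockout 2. Col7a1, the anchoring fibril chain that links epithelial basement membranes to the stroma, was at 9.34 to 12.3 CPM in controls, 14.9 and 12.03 CPM in knockouts 1 and 3, and 68.6 CPM in knockout 2. Col8a2, Col14a1 and Col16a1 were at 23.8, 214 and 110 CPM in knockout 2. In knockout 3 they were at 5.67, 77.8 and 41.1 CPM, each above every control (at most 2.59, 75.2 and 31.3 CPM). The log2 fold changes of Col7a1, Col8a2, Col14a1 and Col16a1 were 1.55, 2.76, 1.13 and 1.39, and 0.30, 1.23, 0.38 and 0.62 without knockout 2. Across the 38 chains, knockout 2 was the highest library for 23, knockout 3 for 7, knockout 1 for 1 and a control for 7, where over all genes these were 23.4%, 22.6%, 7.15% and 46.8%. Knockout 2 was at least 2-fold above both other knockouts for 10 chains and knockout 3 for 3 (Col5a3, Col6a5 and Col19a1), against 4.58% and 2.35% of all genes. Knockouts 1, 2 and 3 lay above all controls for 18, 28 and 25 chains, respectively, against 33.9%, 39.9% and 41.0% of all genes.

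Transcripts of some other cell types were also highest in a single library. The 5 urothelial markers (Upk1a, Upk1b, Upk2, Upk3a and Krt5) summed to 47.6, 62.1 and 23.2 CPM in controls and 62.8, 814 and 6.89 CPM in knockouts. Their sum was thus highest in the same library as Col17a1, Col7a1 and Col6a4, with Krt5 at 347 CPM there. The match did not extend to knockout 3, where the urothelial sum lay below every control but Col17a1 above every control. Knockout 2 was also the highest library for the macrophage and leukocyte markers (526 CPM, below) and for 23.4% of all genes. The 4 smooth muscle markers summed to 222 to 236 CPM in controls and 288, 359 and 1071 CPM in knockouts. The sum was thus highest in the same library as Col6a5, Col5a3 and Col19a1, mainly through Myh11 at 782 CPM there. Cnn1 and Des were also highest in knockout 3. Smtn was not, at 166 CPM there, within its control range of 137 to 170 CPM, and at 183 CPM in knockout 1. The 4 cartilage and bone markers summed to at most 0.199 CPM in any library and the 4 adrenal cortex markers to 7.29 to 14.3 CPM. The part of urothelium or smooth muscle in the collagen values was not tested.

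The 10 fibroblast and myofibroblast markers summed to 376 to 543 CPM in controls and 749, 2357 and 3729 CPM in knockouts 1 to 3. Of them, 5 of 10 rose (Acta2, Tagln, Fn1, Vim and Thy1) and 0 fell, where 10.6% of all genes were called higher and 6.64% lower, and the median log2 fold change was 2.71. The log2 fold changes of Acta2 and Thy1, 3.13 and 3.29, were 2.02 without knockout 3 and 2.50 without knockout 2, respectively. The defining fibroblast marker Pdgfra was at 42.3 to 110 CPM in controls and 61.6, 214 and 53.5 CPM in knockouts, with a log2 fold change of 0.50 (SE 0.59) that turned to -0.44 without knockout 2. Of 5 macrophage and leukocyte markers 4 rose, and their sum was 121 to 138 CPM in controls and 187, 526 and 184 CPM in knockouts. DESeq2 called 8 of the 10 fibroblast and myofibroblast markers and 4 of these 5 higher, where 15.5% of all genes were. For limma-voom these were 3 and 2, where 7.33% of all genes were. Endothelial markers summed to 312 to 607 CPM in controls and 557 to 625 CPM in knockouts, with 0 of 5 called in edgeR (2 at an unadjusted p under 0.05, 1 called by DESeq2). Adipocyte markers summed to 105, 40.6 and 36.1 CPM in controls and 13.8, 78.8 and 142 CPM in knockouts, and so were also highest in knockout 3, with 0 of 4 called by edgeR or DESeq2 (1 at an unadjusted p under 0.05). The part of any of these cell types in the collagen values was not tested.

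**Figure D5:**
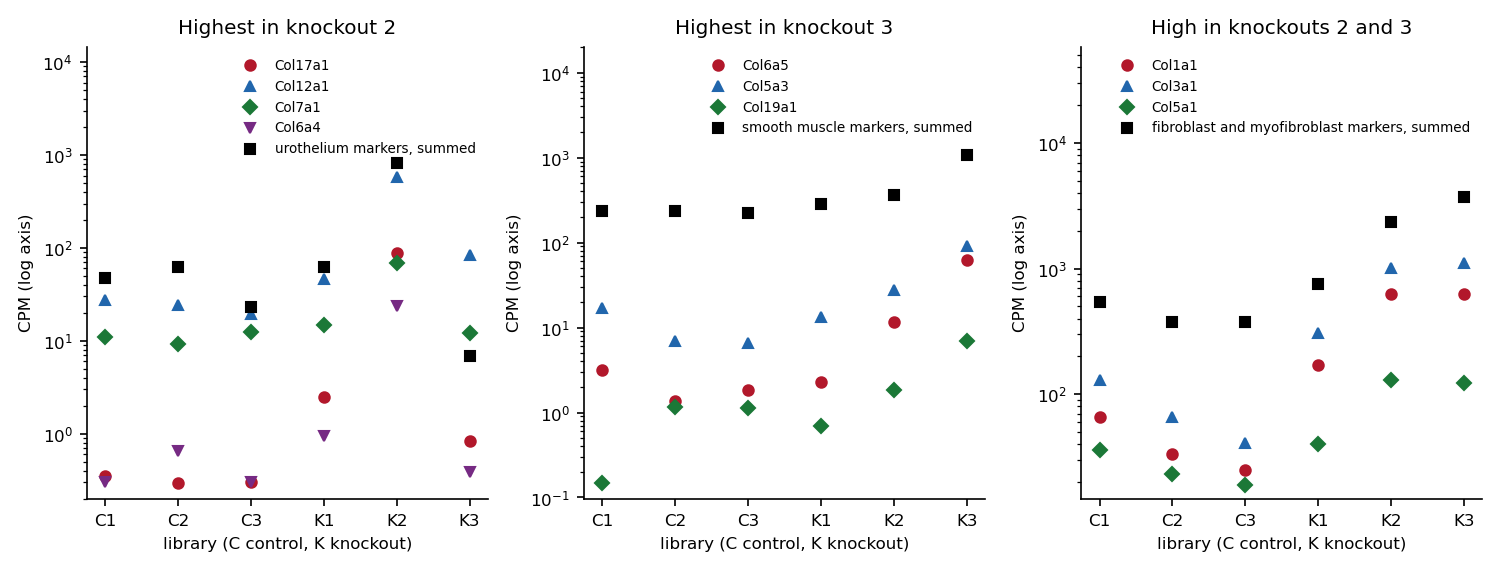
Levels (CPM, log axis) in each library (C, control; K, knockout) of collagen chains and, as black squares, of the summed markers of a cell type. Col17a1, Col12a1, Col7a1 and Col6a4 are highest in knockout 2, as is the urothelial sum, which lies below all controls in knockout 3. Col6a5, Col5a3 and Col19a1 are highest in knockout 3, as is the smooth muscle sum, which Myh11 mainly carries there. Col1a1, Col3a1 and Col5a1 are high with fibroblast and myofibroblast markers in knockouts 2 and 3.

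Few chains were lower in knockouts, and none was called by edgeR with 6 libraries. Besides Col27a1 and the α3/α4 pair, Col25a1 (a transmembrane chain of neurons) had few counts, with 14, 12 and 13 in controls and 8, 3 and 2 in knockouts, and so reached the count minimum only in controls. Col26a1 was at 8.56, 6.11 and 7.02 CPM in controls and 6.77, 3.01 and 0.613 CPM in knockouts, and Col23a1, another transmembrane chain, was at 8.11, 13.3 and 8.40 CPM in controls and 9.42, 6.27 and 2.60 CPM in knockouts. Both were lowest in knockout 3 and overlapped the controls through knockout 1. Their log2 fold changes were -1.04 (SE 0.70) and -0.70 (SE 0.47), the former -1.96 without knockout 1. The FACIT chain Col20a1 was at 4.06 to 7.92 CPM in all libraries. The remaining chains, Col9a3, Col13a1 and Col19a1, had log2 fold changes of 0.91 (SE 0.43), 0.53 (SE 0.46) and 1.92 (SE 0.99), that of Col19a1 being 0.64 without knockout 3.

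Per kilobase of transcript (GENCODE M1, 37 of the 38 chains), the order of the chains also differed between groups. In controls the highest mean levels were those of Col4a1 at 47.3, Col18a1 at 44.6, Col4a3 at 41.0, Col4a2 at 37.5 and Col4a4 at 36.1 CPM per kilobase, all basement membrane chains. In knockouts they were those of Col3a1 at 145, Col1a2 at 123, Col18a1 at 104, Col4a1 at 95.2 and Col1a1 at 79.7 CPM per kilobase. Col3a1 and Col1a2 led in knockouts 2 and 3, whereas knockout 1 was led by Col18a1 at 107, Col4a1 at 87.5 and Col4a2 at 70.8, above Col3a1 at 55.4 and Col1a1 at 28.9 CPM per kilobase. At their starts or elsewhere, exons of 6 chains (Col1a1, Col4a1, Col4a2, Col5a1, Col9a3 and Col15a1) overlap a gene on the opposite strand, and without strand these reads cannot be told apart. The 6 symbols outside the 38 chains were Col2a1, Col9a1, Col9a2, Col10a1, Col22a1 and Col28a1. Of these, Col10a1 and Col28a1 reached 10 counts in 2 libraries, and Col6a4, Col17a1 and Col25a1 reached it in 3, just inside the minimum.

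Collagen chains need a set of enzymes and partners to become matrix, and these were counted in 7 lists of 59 tested genes, of which 12 rose and 1 fell, where 10.6% of all genes were called higher and 6.64% lower. Over the 7 lists, DESeq2 called 20 higher and 5 lower, where 15.5% and 13.1% of all genes were, and limma-voom 7 higher and 2 lower, where 7.33% and 6.05% were. The counts of each list below are to be read beside these shares. Of 7 cross-linking genes 5 rose and 0 fell, with a median log2 fold change of 1.67. Lox, the lysyl oxidase that cross-links fibrillar collagen, was at 10.7, 9.99 and 6.48 CPM in controls and 26.1, 168 and 77.5 CPM in knockouts, with every knockout above every control (log2 fold change 3.32, SE 0.65, adjusted p = 0.0308, edgeR, and 2.50 without knockout 2). Its relatives Loxl1, Loxl2 and Loxl3 rose by log2 fold changes of 1.87, 1.93 and 1.67. Pxdn, the peroxidase that forms the sulfilimine bonds of type IV collagen, was at 38.1, 39.8 and 24.7 CPM in controls and 53.3, 100 and 78.3 CPM in knockouts (log2 fold change 1.17, SE 0.28, adjusted p = 0.0385, edgeR).

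Prolyl and lysyl hydroxylases modify the nascent chains and need iron and oxygen for catalysis. Of 9 tested, 0 were called in edgeR (3 higher and 1 lower at an unadjusted p under 0.05, 2 higher and 1 lower by DESeq2), and the median log2 fold change was 0.11. P3h2, a prolyl 3-hydroxylase that acts on type IV collagen, was at 170, 140 and 121 CPM in controls and 97.1, 36.5 and 44.2 CPM in knockouts, with no overlap (log2 fold change -1.28, SE 0.38, adjusted p = 0.0578, edgeR). P4ha1 and P4ha2, catalytic subunits of the prolyl 4-hydroxylase, had log2 fold changes of -0.18 (SE 0.30) and 0.11 (SE 0.16), within their errors.

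Of 9 chaperones and glycosyl transferases 3 rose and 0 fell (median 0.44). Serpinh1 (HSP47), the collagen-specific chaperone, was at 148, 118 and 114 CPM in controls and 209, 319 and 297 CPM in knockouts (log2 fold change 1.12, SE 0.21, adjusted p = 0.0303, edgeR). Fkbp10 and Colgalt1 rose by log2 fold changes of 1.78 and 0.85. Of 9 propeptidases and their enhancers 2 rose and 0 fell (median 0.43). These were Bmp1, which removes C-propeptides, and Adamts2, which removes N-propeptides, with log2 fold changes of 1.78 and 2.89, the latter 2.02 without knockout 2. The meprins Mep1a and Mep1b, which the proximal tubule brush border also carries, had log2 fold changes of -1.88 (SE 0.65) and -3.09 (SE 0.98) and were not called by edgeR with 6 libraries (adjusted p = 0.0805 and 0.0681). DESeq2 called both lower, and so did edgeR without knockout 1, where the log2 fold changes were -2.80 and -5.08.

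Of 7 genes of collagen secretion 0 rose and 1 fell (median -0.30). This was Sar1b, a small GTPase of COPII vesicles, at 90.5, 115 and 96.4 CPM in controls and 75.3, 57.2 and 48.9 CPM in knockouts (log2 fold change -0.74, SE 0.19, adjusted p = 0.0460, edgeR). Of 9 fibril-associated proteoglycans 0 were called in edgeR (3 higher at an unadjusted p under 0.05, 3 higher by DESeq2), with a median of 1.45. Biglycan (Bgn) was at 198 to 292 CPM in controls and 471, 1840 and 523 CPM in knockouts, and decorin (Dcn) at 53.1 to 78.5 CPM and 61.9, 652 and 232 CPM. Their log2 fold changes of 1.95 and 2.34 were 1.02 and 1.24 without knockout 2. Both were highest in knockout 2, as most chains were. Of 9 collagen receptors 2 rose and 0 fell (median 1.45), namely the integrin subunit Itga11 and the leukocyte receptor Lair1, with log2 fold changes of 2.94 and 3.19 (2.11 and 2.26 without knockout 2). DESeq2 called 5 of the 9 higher, limma-voom called 0, and 6 had an unadjusted p under 0.05. The ubiquitous receptor subunit Itgb1 had one of 0.64 (SE 0.26).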

How the data were processed

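The authors isolated total RNA from whole kidney, selected poly-A RNA, prepared TruSeq RNA libraries and sequenced them on a HiSeq2000. Per the submitters' processing notes, the tools were CASAVA 1.8.2, Trimmomatic, TopHat2 2.0.11 and HTSeq, with the mm9 build. The authors deposited raw counts for each gene, without normalization. The annotation and strand setting of the counting were not given in the sources used here, so overlapping and near-identical genes are uncertain. Of the 100-base words of the transcripts, at least 99% were unique to the gene for 35 of the chains.

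Groups and replicate numbers came from the sample titles. Nothing in the labels says more of the replicates than that they are biological, and replicates differed by 52.9 to 125.5 chi-square units per degree of freedom, so each library counted as 1 replicate. The 15171 genes tested passed edgeR's filterByExpr with default settings (minimum count 10, minimum total 15), which kept all 38 chains. Genotype was tested with edgeR 4.0.16's quasi-likelihood test (TMM, no covariate, R 4.3.3), with Benjamini-Hochberg adjustment over all genes tested and a threshold of 0.05. Shares of counts and ratios of chains were compared by two-sided exact permutation tests over libraries. The edgeR, DESeq2 and limma-voom tests were checked on simulated counts beforehand, and the permutation test on a set of numbers with a known answer. Alternatives were DESeq2 1.42.0 (size factors, and the Wald test, from the package that the study names), limma 3.58.1 (voom), library size alone, other filters, the newer quasi-likelihood version, leaving out each library and a replicate block. Any chain could be named, with values in every library for types I, III, IV, V, VI, XV and XVIII and for the 3 largest rises and falls among the others whose average log2 CPM was 0 or more, and up to 4 members of each handling list, with Loxl3 named as a further call of its list; the values of Col5a3, Col8a1, Col12a1 and of single cell type markers were added after they were seen. The chains and gene lists were chosen with earlier results of these data known.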

Additional observations from a re-analysis of the deposited data

How the results depend on the processing

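The counts of calls depended on the test and on single libraries. With DESeq2's Wald test, calls were 4865 for all genes, 21 for collagen chains (35 tested), 7 for fibrillar (9 tested), 4 for type IV and 10 for other chains (20 tested), against 2612, 9, 4, 2 and 3 with edgeR. Leaving out each library in turn gave 0 to 5332 calls over all genes, 0 to 23 collagen, 0 to 7 fibrillar, 0 to 5 type IV and 0 to 11 other chains, with the upper ends without knockout 1. The cause was not tested. Calls among other chains were 6 with library size alone, 5 with no filter and 1 with limma-voom, where all genes had 3647 of 15171, 2512 of 19758 and 2030 of 15171 calls. Library size alone shifted the median of all genes by 0.27 on the log2 scale. The median log2 fold change of fibrillar chains was 1.27 to 2.32 over the fits that left out a library, lowest without knockout 2.

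With the replicate number as a replicate block, edgeR called 0 genes of all kinds, so 0 collagen, 0 fibrillar, 0 type IV and 0 other chains, with 5432 genes and 20 collagen chains at an unadjusted p under 0.05. Same-numbered libraries deviated together with correlations of -0.129, 0.0116 and 0.215, so the numbers were not taken to pair the samples.

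Some signs turned. Col11a1, at 1.85 with all libraries, was at -0.996 to 2.37 over the fits that left out a library, the former without knockout 2. Col20a1 was at 0.26 with library size alone, 0.0084 with at least 10 counts in every library, 0.043 with limma-voom, 0.047 with the replicate block and -0.21 to 0.32 over the fits that left out a library. Col4a5 was at -0.0042 with DESeq2's size factors, -0.012 with DESeq2's Wald test and -0.070 to 0.11 over the fits that left out a library. Over the same fits the log2 ratio difference was -0.16 to 0.081 for Col4a3/Col4a4 (positive without control 3), -0.095 to 0.072 for Col6a1/Col6a2 (positive without knockout 3) and -0.24 to 0.74 for Col15a1/Col18a1 (negative without knockout 2). The difference in the collagen share of counts stayed between 0.293 and 0.518 percentage points over the fits that left out a library.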
